A study of Homo sapiens with 101 samples.

Results

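HT1080 is a human cell line grown from a fibrosarcoma, a malignant tumour of fibroblast-like cells, and the samples described here are its 6 control groups: 37 of the 101 arrays of the series. They were chosen by sample title, and they hold 36 replicates, because 1 replicate of ETP_DMSO was arrayed a second time and its 2 arrays were averaged. The series gave HT1080 cells 1 of 11 compounds at a single dose chosen for a like rise of total p53 protein. Each control group has 6 replicates. DMSO_pooled is labelled as pooled DMSO with no word on which cells or samples went into the pool. BRO_DMSO, CUR_DMSO (labelled CuR), ETP_DMSO and QUE_DMSO are the DMSO controls named for the compounds coded BRO, CUR, ETP and QUE, and MMS_CTL is the control named for MMS. All the cells were of 1 line and grew in medium with 10% heat-inactivated serum, and the dosing solutions were added 24 hours after seeding, to 0.1% vehicle. The controls named for DMSO are therefore vehicle controls rather than cells left alone, the title of MMS_CTL does not name its vehicle, and the exposure time was not given in the sources used here. One cell line stands for its tumour type only in part, and nothing in the labels says that the replicates were separate cultures.

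Fibroblast-like cells carry intermediate filaments of vimentin, secrete fibronectin and collagen, and hold on to that matrix through integrins. Epithelial cells instead join each other through E-cadherin and carry keratin filaments. Dividing cultures switch on replication genes through E2F factors at entry to S phase, and serum growth factors switch on immediate early genes such as EGR1 within minutes through the serum response factor. These features are textbook background for the lists below.

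The values are log2 signals of probe sets, and each control group was normalized within its own set of arrays, so that medians of the control arrays ran from 2.90 in BRO_DMSO to 3.54 in ETP_DMSO. No level was therefore compared between groups. Each of 19774 genes, represented by 1 probe set, was instead given its percentile among all genes of the same group. A gene was called high where it stood at the 90th percentile or above in all 6 groups, and low where it stood at the 40th or below with a mean under 4 in all 6. A probe set's signal depends on its probes as well as on its transcript, so a percentile gives a coarse position and no fine order between genes. Low means not well above background, and the level of 4 does not lie equally far above background in every set, since 5% of values lay below 1.70 in BRO_DMSO and 2.48 in ETP_DMSO. The number of arrays limits the precision.

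The arrays themselves bear on the counts. Replicates of ETP_DMSO and QUE_DMSO with the same number deviated from their group means together, with r from 0.354 to 0.877 over 10471 genes, and all 6 matched best with their own number. The SD of the difference in deviation between such arrays was 0.125 to 0.192, beside 0.146 for the array that was run again, so these 2 groups are not shown to be independent. The arrays labelled MMS_CTL replicate 3 and CUR_DMSO replicate 5 had the largest SDs of deviation over genes, 0.318 and 0.359. DMSO_pooled replicate 1 followed at 0.297. With ETP_DMSO and QUE_DMSO taken as 1 group there were 1718 high and 6926 low genes, beside 1707 and 6816 with all replicates. Without MMS_CTL replicate 3 and CUR_DMSO replicate 5 there were 1700 and 6856.

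The control groups ranked genes in nearly the same order. Spearman's rho over genes was 0.967 to 0.990 for the 15 pairs of groups, with the lowest value for CUR_DMSO against QUE_DMSO, and 91.9% to 97.5% of the genes at the 90th percentile or above in one group were so in another. Genes are not independent replicates, and these values are a description. High genes numbered 1707, or 8.63% of all genes, low genes 6816, or 34.5%, and 9746, or 49.3%, had a mean of 4 or more in every group. No gene was high in 1 group and at the 40th percentile or below in another. Asked of every replicate singly, 1440 genes stayed high and 4847 low. Just inside and outside the threshold for high genes were STK26 and LTBP1, with lowest percentiles that both round to 90, and for low genes LINC00029 and H1-3, with highest percentiles that both round to 40. The 10 genes with the highest mean percentile were RPS2, RPS18, RPL23A, RPL37A, RPL41, RPS3A, RPS23 and RPL13A of the ribosome, the elongation factor EEF1A1 and SH3KBP1, an adaptor of receptor endocytosis. Their means ran from 13.14 to 13.35, and ribosomal probe sets can also read near-identical pseudogene copies.

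Promoter sequences of a high and a low gene are shown for their content of CG, which differed in median between the classes. The pair was picked as an illustration. The stretches run from 250 bases before to 50 after the start of the gene, read 5′ to 3′ on the gene's strand, from RefSeq on GRCh38.p14. MET, a receptor tyrosine kinase of the cell surface, was high in all groups and is at chr7:116671946-116672245, plus strand. PTPRC, the leukocyte surface phosphatase CD45, was low in all groups and is at chr1:198638790-198639089, plus strand. Capitals mark each CG.
MET: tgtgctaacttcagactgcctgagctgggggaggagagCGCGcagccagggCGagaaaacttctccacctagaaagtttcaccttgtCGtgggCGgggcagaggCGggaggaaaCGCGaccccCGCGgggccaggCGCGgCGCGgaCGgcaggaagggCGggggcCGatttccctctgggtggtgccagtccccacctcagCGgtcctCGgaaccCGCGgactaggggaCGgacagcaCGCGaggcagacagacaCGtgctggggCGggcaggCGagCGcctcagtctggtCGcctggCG
PTPRC: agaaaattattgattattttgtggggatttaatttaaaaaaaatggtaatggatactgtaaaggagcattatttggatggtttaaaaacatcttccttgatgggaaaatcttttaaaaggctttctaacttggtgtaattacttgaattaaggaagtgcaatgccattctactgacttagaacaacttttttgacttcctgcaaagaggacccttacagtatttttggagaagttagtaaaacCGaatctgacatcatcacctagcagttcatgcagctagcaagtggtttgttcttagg
The MET stretch holds 30 CG dinucleotides and the PTPRC stretch 1. High genes were not all like MET, since the stretch of VIM holds 10 and that of IL1B, also high in all groups, 2. The ratio of observed to expected CG had a median of 0.870 over 1449 high genes with a promoter entry and 0.395 over 4893 low genes, beside 0.770 over all 15399. A ratio of 0.6 or more was found in 90.2% of the high genes, 37.3% of the low genes and 66.8% of all. TATAAA on either strand lay in 7.38% of high, 14.5% of low and 8.80% of all stretches. These are descriptions of sequence, and a match is not a used site.

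Several genes of mesenchymal structure stood near the top of the ranking, and others were low. Of 36 measured genes of mesenchymal and fibroblast structure, 13 were high and 12 low, beside 8.63% high and 34.5% low over all genes, with a median percentile of 79.8 beside 49.9 over all. VIM, which encodes vimentin, was at 99.9 to 100 by percentile with group medians from 13.01 to 13.25, and its replicates differed little, with an SD of 0.06 pooled within groups. LGALS1, a lectin of the matrix, was at 99.5 to 99.7, S100A6 at 99.4 to 99.6 and FN1, which encodes fibronectin, at 99.3 to 99.6. N-cadherin, encoded by CDH2, was high at 91.4 to 94.7. Collagens were mixed, with 4 of 29 high and 9 low. COL6A3 at 99.4 to 99.5, COL4A1 at 96.8 to 99.1, COL13A1 and COL4A2 were the high ones, and the fibrillar genes COL1A1, COL1A2 and COL5A1 were the 3 that varied most between replicates. Of 10 transcription factors of the mesenchymal state none was high in all groups, 7 had a mean of 4 or more throughout and 2 were low. ZEB1 stood at 88.3 to 91.6, SNAI2 at 81.8 to 86.9 and TWIST1 at 77.7 to 82.2, which repress epithelial genes in other cells.

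Of attachment and invasion genes, some were high and a share near that of all genes was low. Of 25 integrin subunits 5 were high (20%, beside 8.63% of all genes) and 8 low (32%, beside 34.5%). The high ones were ITGB1 (99.6 to 99.7), the common beta subunit, ITGA2 (98.9 to 99), ITGB5, ITGA6 and ITGAV. Of 28 matrix proteases, inhibitors and genes of plasminogen activation, 7 were high (25%) and 9 low (32.1%). PLAU, the urokinase that activates plasminogen at the cell surface, stood at 96.9 to 98.4 and its receptor PLAUR at 94.5 to 95.7, with SERPINE2 at 97.6 to 98.7 and PLAT at 97.3 to 98.5. MMP14, a membrane-bound protease that activates MMP2, was high at 92.6 to 94.2. MMP2 itself stood at 88.3 in MMS_CTL and 73.3 to 76.5 in the other groups. That difference cannot be told apart from the set in which MMS_CTL was normalized. The interstitial collagenase MMP1 varied between replicates, with an SD of 0.67.

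Markers of other lineages were mostly low. Of 33 epithelial genes 22 were low (66.7%, beside 34.5% of all genes) and 1 high (3.03%, beside 8.63%). E-cadherin, encoded by CDH1, ran from 2.56 to 2.88 with a median of 2.71 in DMSO_pooled, 1.94 to 2.54 with a median of 2.17 in BRO_DMSO and 2.29 to 2.84 with a median of 2.52 in MMS_CTL. In the other groups it ran from 2.50 to 2.87 with a median of 2.64 in CUR_DMSO, 2.74 to 2.98 with a median of 2.77 in ETP_DMSO and 2.22 to 2.68 with a median of 2.52 in QUE_DMSO. All 36 replicates were under 3, below the level of 4 used here for genes well above background. The scales of the groups are not shared, so overlap between groups was not read. EPCAM, an epithelial adhesion protein, stood at 18.8 to 34.8. The simple-epithelium keratins went the other way: KRT18 was high at 96.3 to 96.9 and its partner KRT8 stood at 82.2 to 88, with KRT7, KRT15 and the desmosome gene DSP also at a mean of 4 or more in every group.

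**Figure D1:**
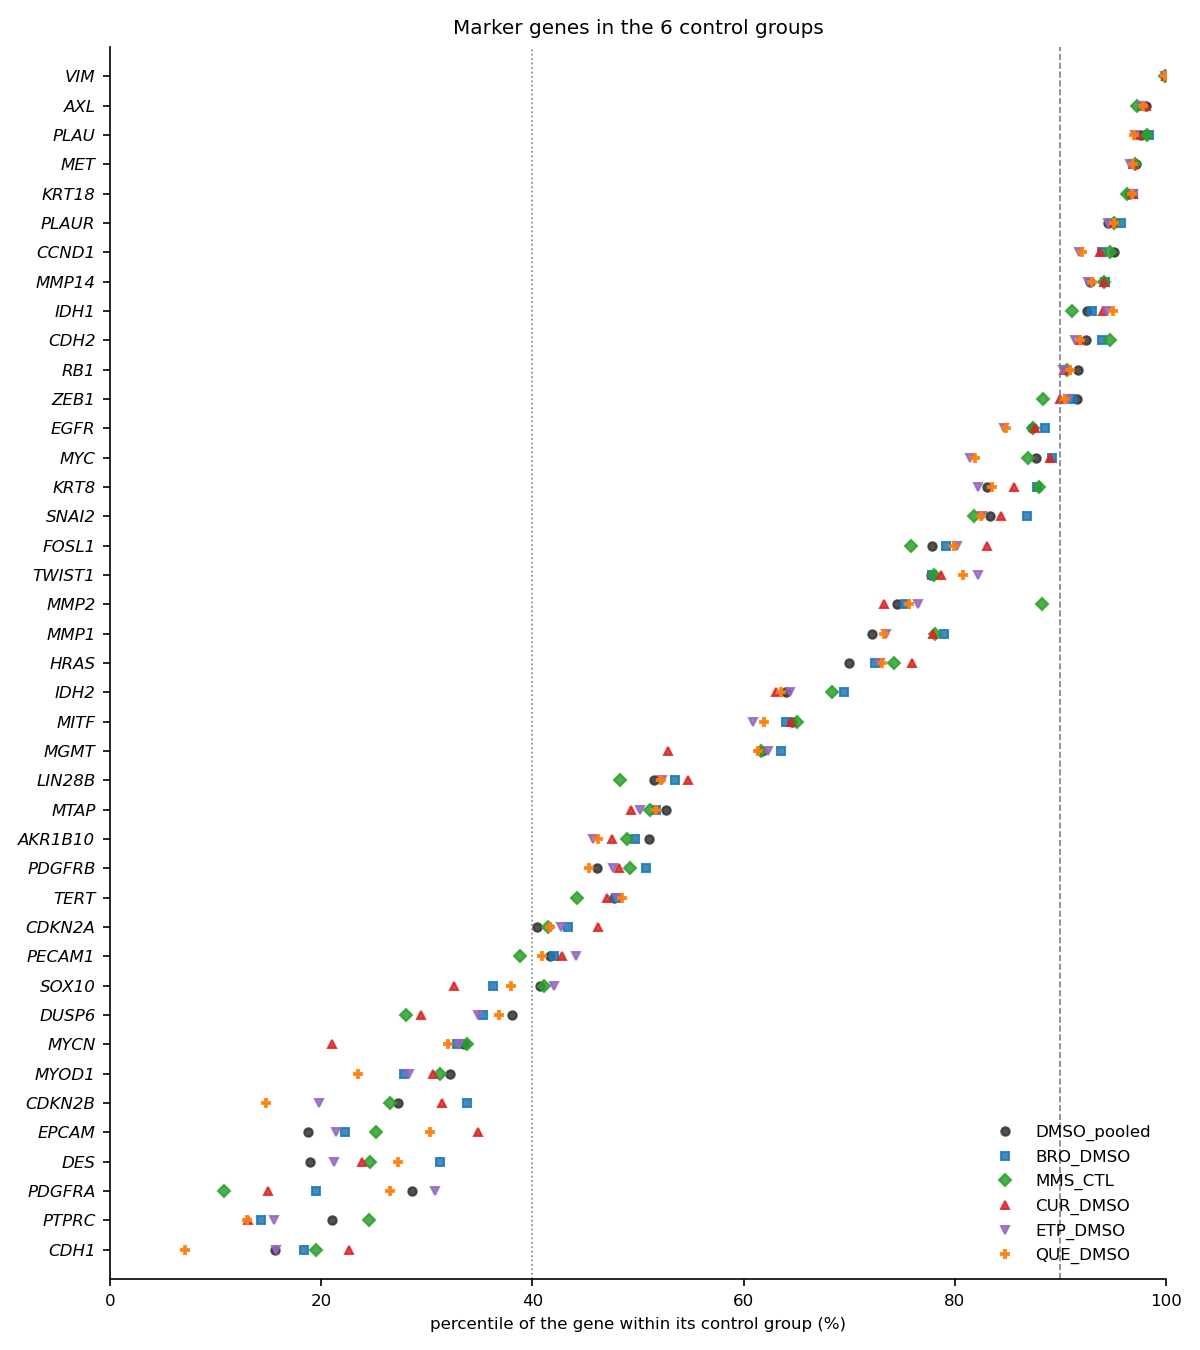
Percentile of 41 marker genes within each of 6 control groups, where each point is 1 group, the dashed line the 90th percentile and the dotted line the 40th. VIM, AXL, PLAU and MET sit at the right in every group, CDH1, PTPRC and PDGFRA at the left, and MMP2 is farther right in MMS_CTL.

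The other lineage lists had few or no high members. Over all genes, 8.63% were high and 34.5% low. The muscle list had 18 low of 23, with TNNT1 (77.5 to 80.2) and MEF2C the members at 4 or more throughout, and DES, the muscle filament desmin, and MYOD1, the master regulator of myoblasts, at 18.9 to 31.3 and 23.5 to 32.2. The haematopoietic list had 18 low of 25, with CD68 and LCP1 at 4 or more throughout and PTPRC at 13 to 24.5. Hepatocyte genes were low in 12 of 16, with only CYP3A4 at a mean of 4 or more throughout (48.1 to 54.9), and endothelial genes in 12 of 18, with FLT1, TIE1 and ROBO4 at 4 or more throughout and PECAM1 at 38.8 to 44.1. Neural genes were low in 14 of 22, and TUBB3, a tubulin of neurons that tumour lines also express, was high at 94.1 to 97.6. Neural crest and melanocyte genes were low in 9 of 13: MITF stood at 60.9 to 65 and TFAP2A at 66.3 to 69.5, while SOX10 was at 32.6 to 42.1. In the list of bone, cartilage and fat, 12 of 18 were low, SOX9, the regulator of cartilage formation, was high at 90.2 to 91.6, and RUNX2, the regulator of bone formation, stood at 81.2 to 84.8. Pluripotency and germ line genes were low in 10 of 14, and LIN28B, an RNA-binding protein that blocks let-7, was the one member with a mean of 4 or more in every group, at 48.3 to 54.7. Against the labelled cell type, the mesenchymal genes were the lineage list with the most high members, and KRT18, TUBB3 and SOX9 were the single high members of their lists.

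Position along the body axis is recorded in HOX genes. Of 39 listed, 29 were measured and none was high, beside 8.63% of all genes. Of these 29, 14 (48.3%) had a mean of 4 or more in every group, near the 49.3% of all genes. Another 7 (24.1%, beside 34.5%) were low. The 14 came from the B, C and D clusters, with no HOXA gene among them. HOXC6 was at 84.4 to 87.2 and HOXB2 at 81.4 to 83.2; both were chosen after their values were seen.

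**Figure D2:**
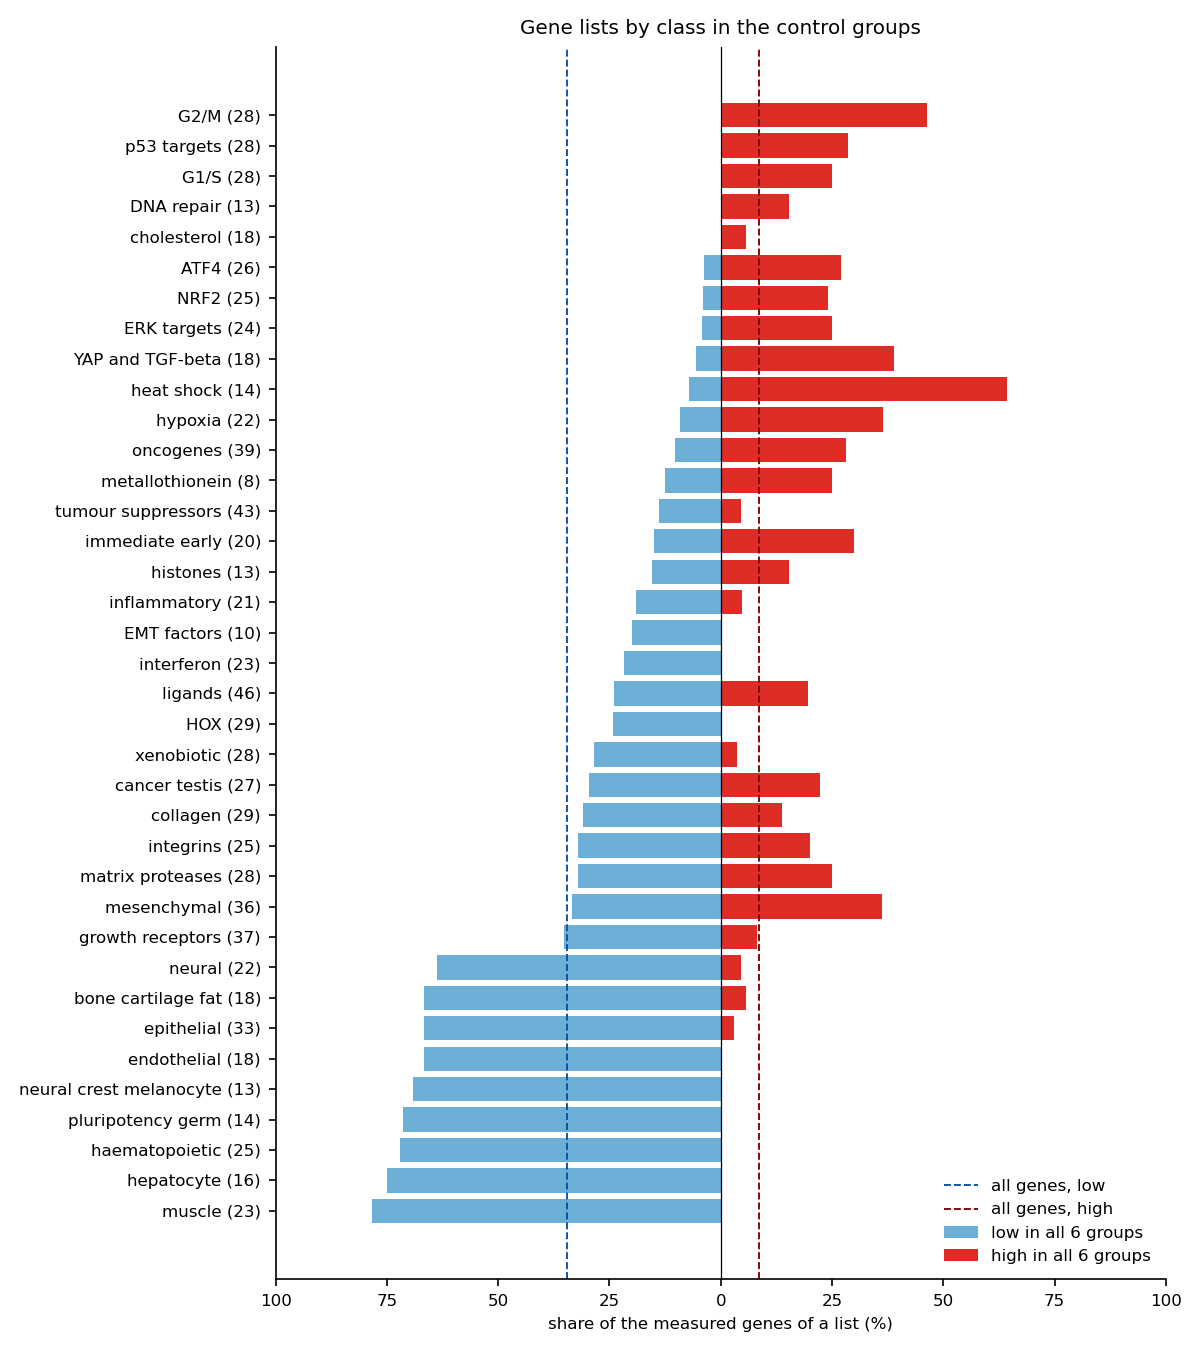
Share of the measured genes of each lineage, oncogene and program list that were high (red, to the right) or low (blue, to the left) in all 6 control groups, with the number measured in brackets and dashed lines at the share over all genes (8.63% high, 34.5% low). The lineage lists at the bottom are mostly low, and heat shock and G2/M genes have the longest red bars among the lists shown; glycolysis is not drawn.

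Growth control genes came next. Among 39 oncogenes of the RAS, MYC, cyclin and kinase families 11 were high (28.2%, beside 8.63% of all genes). Another 4 were low (10.3%, beside 34.5%), and the median percentile was 79.3. WWTR1 (98.9 to 99.3), which encodes the YAP partner TAZ, CTNNB1 (97.6 to 97.9), which encodes beta-catenin, the survival gene MCL1 (96.9 to 98) and JUN (95.8 to 96.4), a subunit of AP-1, stood highest, and cyclin D1, encoded by CCND1, was high at 91.7 to 95.1. MYC was at 81.5 to 89.2 and HRAS at 70 to 76, whereas MYCN was low at 21 to 33.8. Of 37 receptor tyrosine kinases AXL (97.3 to 98.1), MET (96.6 to 97.2) and RYK (91.5 to 93.8) were high and 13 were low. Those shares, 8.11% and 35.1%, were near the 8.63% and 34.5% of all genes. EGFR stood at 84.7 to 88.5. The platelet-derived growth factor receptors that fibroblasts use stood at 45.4 to 50.8 (PDGFRB) and 10.8 to 30.8 (PDGFRA, low).

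Products of the RAS to ERK pathway were not alike. Of 24 genes of ERK output and feedback 6 were high (25%, beside 8.63% of all genes) and 1 was low (4.17%, beside 34.5%). PHLDA1 (99.2 to 99.5), IER3 (97.5 to 98.4), DUSP4 (96.3 to 97.6) and HMGA1 (93.6 to 95.1) were the highest, and FOSL1, an AP-1 subunit that ERK stabilizes, stood at 75.8 to 83. The low one was DUSP6, the phosphatase that turns ERK off, at 28 to 38.1, which ran from 2.57 to 3.57 with a median of 3.33 in DMSO_pooled, 2.52 to 2.99 with a median of 2.64 in BRO_DMSO and 2.32 to 3.09 with a median of 2.75 in MMS_CTL. In the other groups it ran from 2.42 to 3.52 with a median of 2.78 in CUR_DMSO, 3.18 to 3.51 with a median of 3.30 in ETP_DMSO and 3.08 to 3.62 with a median of 3.27 in QUE_DMSO. No replicate of DUSP6 reached 4.

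Of 43 tumour suppressors 2 were high (4.65%, beside 8.63% of all genes) and 6 low (14.0%, beside 34.5%). RB1, the brake on E2F, was high at 90.2 to 91.7, with SMAD3, a mediator of TGF-beta signals, at 90.2 to 94. The neighbouring inhibitors of CDK4 and CDK6 were at the other end. CDKN2B was low at 14.8 to 33.8, and CDKN2A stood at 40.4 to 46.2 with a mean of 3.51, under 4 in every group and just above the line for low genes. The next gene, MTAP, which salvages methionine, was at 49.4 to 52.6 with a mean of 4.64. Copy number was not analysed here. TERT, the catalytic subunit of telomerase, stood at 44.2 to 48.5 with a mean of 4.05. IDH1, which makes alpha-ketoglutarate in the cytosol, was high at 91.1 to 95 and the mitochondrial IDH2 stood at 63 to 69.5. The array gives transcript levels and says nothing on mutations. Of 46 panel genes, 5 were not analysed here.

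The cells carried transcripts of several secreted factors and germ line antigens. Of 46 growth factors and cytokines, 9 were high (19.6%, beside 8.63% of all genes) and 11 low (23.9%, beside 34.5%). A mean of 4 or more throughout was found in 50%, near the 49.3% of all genes. MIF (99 to 99.2), VEGFA (98.2 to 99), GDF15 (98 to 98.9) and CCN2 (97.7 to 99.1) stood highest. IL1B, which encodes the inflammatory cytokine interleukin 1 beta, was high at 95.5 to 98.4 in all groups. It was the single high member of the inflammatory list of 21 (4.76%, beside 8.63% of all genes). The list of cancer-testis antigens and related MAGE genes, not all of them restricted to the germ line, had 6 high of 27. That was 22.2%, beside 8.63% of all genes, and 8 were low (29.6%, beside 34.5%). The high ones were MAGEA6 (97.9 to 98.2), CTAG2 (97.4 to 98.3), MAGEB2 (96.3 to 97.5), MAGEA12 (95.8 to 96.6), MAGED1 and MAGED2. MAGEA and CTAG genes have near-identical copies, so their probe sets may read more than 1 gene. Interferon-stimulated genes had no high member of 23, beside 8.63% of all genes.

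Housekeeping and stress lists, save the cytochromes P450 and conjugating enzymes, had more members at a mean of 4 or more throughout than the 49.3% of all genes. Glycolysis had 10 high of 20, led by GAPDH (99.9 to 100) and LDHA (99.7 to 99.9), and heat shock 9 of 14, led by HSPA8 (99.7 to 99.9) and HSP90AA1 (99.5 to 99.6). G2/M genes had 13 high of 28 and none low, led by PTTG1 (97.5 to 98.6) and TOP2A (96.5 to 98), and G1/S genes 7 of 28 and none low, led by TYMS (97.4 to 98.2) and PCNA (96.9 to 97.4). Targets of p53 were high in 8 of 28 and low in none, with RPS27L (99.5 to 99.6) and TNFRSF10B (99 to 99.1) the highest. Targets of NRF2, the regulator of antioxidant genes, were high in 6 of 25, led by FTL (99.7 to 99.9) and TKT (98.3 to 98.7), and AKR1B10 stood at 45.7 to 51. Hypoxia response genes were high in 8 of 22, led by PGK1 and BNIP3 (98.5 to 99), genes of the amino acid response in 7 of 26, led by ATF4 (96.1 to 96.7) and PSAT1 (96 to 97.6), and YAP and TGF-beta targets in 7 of 18. Metallothioneins had 2 high of 8, MT2A and MT1X. Of 20 immediate early genes 6 were high and 3 low, and of 13 histone genes 2 were high and 2 low. Of 13 DNA repair genes 2 were high, APEX1 and MSH6, while MGMT, which removes alkyl groups from guanine, stood at 52.8 to 63.6. Cholesterol genes had 1 high of 18, MSMO1 (5.56%, beside 8.63% of all genes). Cytochromes P450 and conjugating enzymes had 1 high of 28, GSTP1 (3.57%), with 8 low and 9 at a mean of 4 or more throughout (32.1%).

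A few genes changed place between control groups. The range of percentile over groups had a median of 3.6 points among the 10471 genes with a mean of 4 or more, and 6 genes exceeded 20 points. COL5A1, a chain of fibrillar collagen, stood at 41.8 in CUR_DMSO and 68.5 in MMS_CTL. COL1A1, the main chain of type I collagen, stood at 60.6 and 83.4 in the same groups, and PMEPA1, a TGF-beta target that feeds back on SMAD proteins, at 72 and 92. CCND2, a cyclin, was lowest in MMS_CTL at 27.4 and highest in DMSO_pooled at 51.3, and ESM1, a secreted proteoglycan, was lowest in MMS_CTL at 61.1 and highest in CUR_DMSO at 80.8. The other members of the 10 with the widest range were ST6GAL2, ALDH1L2, YPEL3, KIAA1107 and ZNF558, each lowest in CUR_DMSO. The control group and its set of arrays cannot be told apart, so these differences carry no test.

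Replicates of one control group differed far more in some genes than in others. The SD between replicates, pooled over the 6 groups, had a median of 0.199 on the log2 scale over 10471 genes, and 5% of genes exceeded 0.398. Genes with a pooled SD of 0.5 or more were called variable, and there were 159 of them, or 1.52%. SLC67A1 lay just inside and CNKSR2 just outside, both at 0.50. High genes had a median SD of 0.119. The 20 largest SDs ran from 0.71 for PTGES to 1.03 for FAM111B. The pair of arrays of 1 ETP_DMSO replicate, the only repeat, differed by a median of 0.0903 over all these genes and 0.121 over the variable ones, and no gene differed by 1 or more. The range over the 6 ETP_DMSO replicates, which covers more arrays than a pair, had a median of 0.467 over all these genes and 1.54 over the variable ones, which were chosen for their spread. How much of the spread between replicates is technical was not tested.

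**Figure D3:**
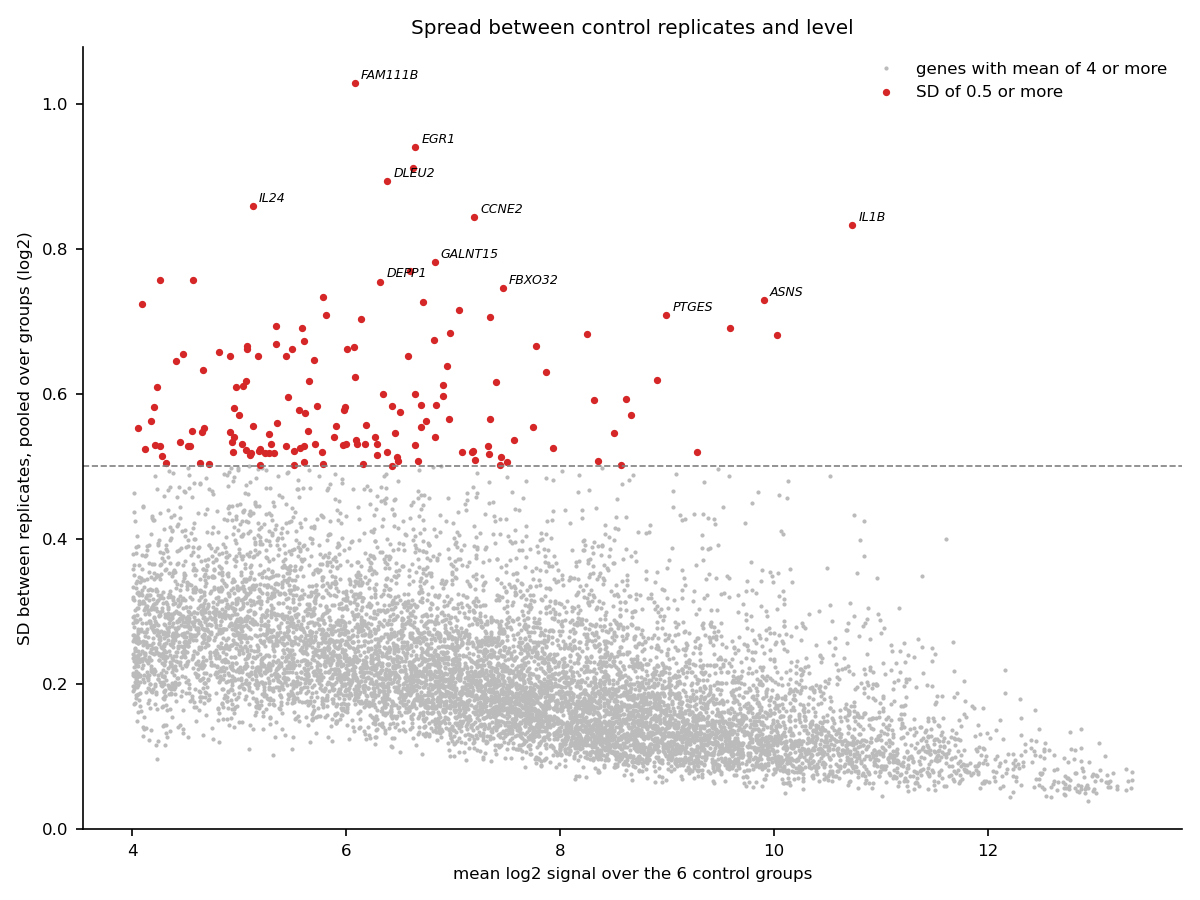
SD between control replicates, pooled over 6 groups (log2), against mean log2 signal for 10471 genes, where red points are the 159 genes at or above 0.5 (dashed line). FAM111B and EGR1 lie at the top with SDs of 1.03 and 0.94, and IL1B and ASNS stand out among strongly expressed genes.

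The most variable gene was FAM111B, a protease that acts in DNA replication. It ran from 5.48 to 7.46 with a median of 6.47 in DMSO_pooled, 4.19 to 6.32 with a median of 5.37 in BRO_DMSO and 4.92 to 7.40 with a median of 6.52 in MMS_CTL. In the remaining groups it ran from 4.08 to 7.51 with a median of 5.81 in CUR_DMSO, 4.63 to 7.74 with a median of 6.50 in ETP_DMSO and 4.28 to 7.77 with a median of 6.53 in QUE_DMSO. Levels of the groups are not on 1 scale. Among other genes of large SD were some with roles in replication. CCNE2, which encodes cyclin E2 and drives entry to S phase, ran from 6.62 to 8.49 with a median of 7.21 in DMSO_pooled, 4.72 to 7.42 with a median of 6.23 in BRO_DMSO and 5.89 to 7.55 with a median of 7.0 in MMS_CTL. In the remaining groups it ran from 4.60 to 7.65 with a median of 7.15 in CUR_DMSO, 6.68 to 8.92 with a median of 8.13 in ETP_DMSO and 6.68 to 8.88 with a median of 8.09 in QUE_DMSO, and CUR_DMSO replicate 5 was the low one there at 4.60. ESCO2, which acetylates cohesin on new chromatids, had an SD of 0.91, CDC6, which loads the replicative helicase, 0.68, and UHRF1, which recruits the DNA methyltransferase to new strands, 0.52. DLEU2, the host transcript of miR-15a and miR-16-1, had an SD of 0.89.

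EGR1, a zinc-finger factor and classic immediate early gene, ran from 4.26 to 7.96 with a median of 7.16 in DMSO_pooled, 5.34 to 7.12 with a median of 6.53 in BRO_DMSO and 5.65 to 7.69 with a median of 7.19 in MMS_CTL. In the remaining groups it ran from 3.86 to 7.10 with a median of 5.08 in CUR_DMSO, 6.13 to 8.25 with a median of 7.59 in ETP_DMSO and 6.43 to 7.90 with a median of 7.25 in QUE_DMSO. DMSO_pooled replicate 1 was low within its group, and by percentile CUR_DMSO was the lowest group, at 58.2. IL1B was high in rank yet variable, from 7.94 to 11.57 with a median of 10.97 in DMSO_pooled, 9.94 to 11.20 with a median of 10.94 in BRO_DMSO and 10.53 to 11.52 with a median of 11.28 in MMS_CTL. In the remaining groups it ran from 9.39 to 11.24 with a median of 10.06 in CUR_DMSO, 9.53 to 11.69 with a median of 11.11 in ETP_DMSO and 9.35 to 11.75 with a median of 10.97 in QUE_DMSO. Its SD was 0.83 with all replicates and 0.55 without the number 1 arrays of DMSO_pooled, ETP_DMSO and QUE_DMSO, which were left out after the data were seen. FBXO32, a ubiquitin ligase of muscle wasting and FOXO target, had an SD of 0.75, DEPP1, another FOXO target, 0.75, and GALNT15, which starts O-linked glycans, 0.78. The SD of GALNT15 was 0.51 without those number 1 arrays and 0.39 by the median absolute deviation. PTGES, which makes prostaglandin E2, had an SD of 0.71 that rested on DMSO_pooled replicate 1 and fell to 0.41 without it.

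Some amino acid genes were variable too. ASNS, asparagine synthetase and a target of ATF4, ran from 9.43 to 10.82 with a median of 10.10 in DMSO_pooled, 9.05 to 10.19 with a median of 9.76 in BRO_DMSO and 8.75 to 9.73 with a median of 9.32 in MMS_CTL. In the remaining groups it ran from 7.92 to 10.38 with a median of 9.42 in CUR_DMSO, 8.90 to 11.29 with a median of 10.45 in ETP_DMSO and 8.84 to 11.34 with a median of 10.58 in QUE_DMSO. SLC1A4, a carrier of neutral amino acids, had an SD of 0.54, CTH, which makes cysteine, 0.52, and the folate enzyme ALDH1L2 0.72. In all, 5 of 23 members of that list with a mean of 4 or more were variable. Beside them were 3 of 28 G1/S genes, 0 of 28 G2/M genes and 1.52% of the 10471 genes with such a mean. COL1A1 ran from 6.43 to 8.45 with a median of 7.89 in DMSO_pooled, 5.67 to 7.73 with a median of 6.61 in BRO_DMSO and 7.10 to 9.04 with a median of 8.58 in MMS_CTL. It ran from 4.23 to 6.81 with a median of 5.99 in CUR_DMSO and 6.51 to 7.48 with a median of 6.92 in ETP_DMSO. In QUE_DMSO it ran from 5.99 to 7.58 with a median of 6.76. Levels of the sets are not on 1 scale, so overlap between groups was not read.

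The other genes of the 20 were IL24, a cytokine (0.86), KRTAP2-3, a hair keratin-associated gene with near-identical neighbours (0.77), ST6GAL2, a sialyltransferase (0.76), CC2D1A (0.76), GMFG, a regulator of branched actin (0.73), BRI3BP (0.73) and FLG, filaggrin of the skin barrier (0.71). The spread of CC2D1A lay in 2 groups: CUR_DMSO ran from 3.05 to 6.27 with an SD of 1.31, and MMS_CTL had an SD of 1.24, with replicate 3 at 7.86 and the others between 4.71 and 5.02. Its SD was 0.16 to 0.28 in the other groups. With the mean of each gene's probe sets, the SDs of ESCO2, DLEU2, ST6GAL2, CC2D1A, DEPP1, FBXO32, ASNS, ALDH1L2 and COL1A1 were 0.20 to 0.47, and DLEU2 was at 0.32 without probe sets that match several sequences.

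**Figure D4:**
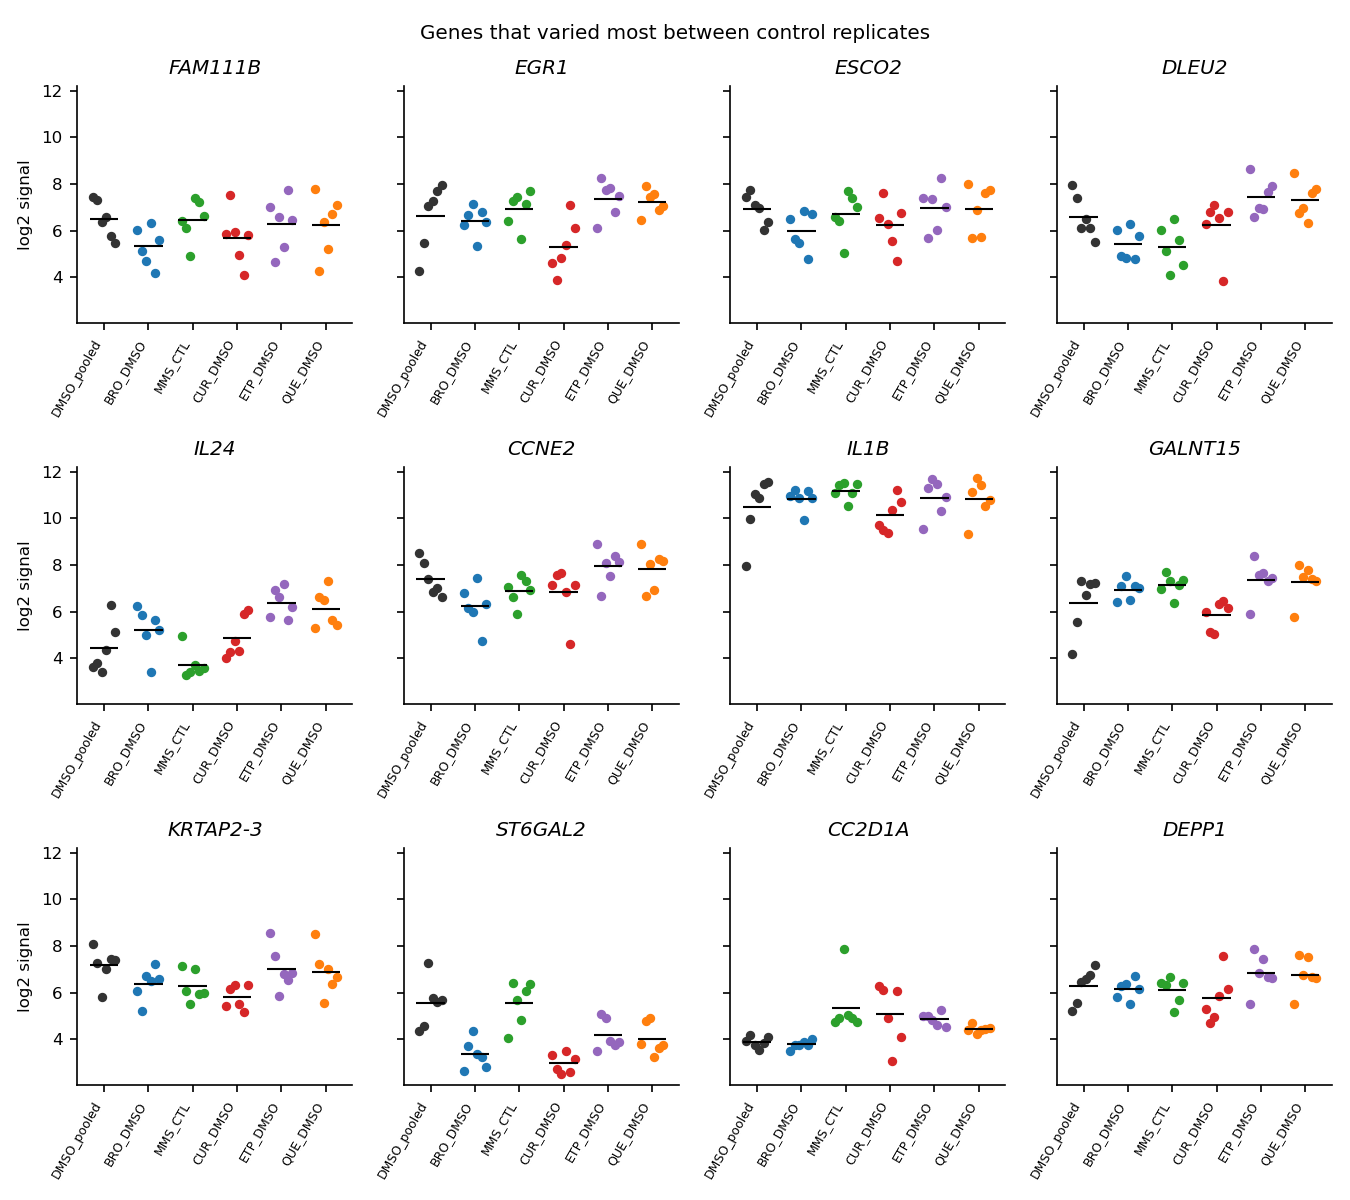
Log2 signal of the 12 genes with the largest SD between control replicates, where each point is 1 replicate and the line its group mean. Replicates of a group are spread over 1 unit or more in most panels; CC2D1A is spread in CUR_DMSO and MMS_CTL and narrow in the other groups, and levels are not comparable between groups.

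The same genes varied in cells given compounds, in arrays that took no part in choosing them. Pooled over the 11 compound groups, 111 of the 159 had an SD of 0.5 or more. Of the 10471 genes with a mean of 4 or more in the controls, 312 (2.98%) did. The variable genes had a median SD of 0.58 there, beside 0.21 over all 10471. Of the 20 most variable, 19 reached 0.5, and CC2D1A at 0.33 did not. FAM111B had 0.99 there, EGR1 0.99, IL1B 0.97, GALNT15 1.21 and ASNS 0.63. The compound arrays share array sets with the controls. Between control groups, lists of the 524 genes with the largest SD in each shared 24.4% to 52.5% of their members in the 14 pairs other than ETP_DMSO with QUE_DMSO, where the share was 66.6%. In all 6 groups 47 genes were on the list, 12 of the 20 most variable among them. Those 20 were chosen by their SD over these same groups, so that overlap is no separate support. ETP_DMSO and QUE_DMSO also count as 2 groups here, although they are not shown to be independent.

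Lists of genes moved as blocks between replicates. The mean of a list in a sample, less the mean of its group, spread most for the G1/S list, with an SD of 0.33, then for the amino acid list with 0.27 and the G2/M list with 0.24. Mesenchymal genes spread by 0.07 and the p53 targets by 0.09. The G1/S list ran from -0.73 in CUR_DMSO replicate 5 to 0.54 in ETP_DMSO replicate 1, and without MMS_CTL replicate 3 and CUR_DMSO replicate 5 its SD was 0.29. Over 30 replicates in 5 groups, QUE_DMSO left out, the G2/M list followed the G1/S list with r = 0.958 (rho = 0.959, both permutation p = 1e-05, adjusted p = 3.7e-05 over 15 lists). The heat shock list followed it with r = 0.919 (rho = 0.898) and the same permutation p. Immediate early genes ran against it with r = -0.83 (rho = -0.809), as did hypoxia genes with r = -0.827 (rho = -0.799), again with permutation p = 1e-05, the smallest that the permutations can give.

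The signs of these 4 relations were the same within each group: r ran from 0.948 to 0.993 for G2/M, 0.87 to 0.977 for heat shock, -0.935 to -0.746 for immediate early and -0.986 to -0.706 for hypoxia genes. Leaving out the 2 samples farthest from the median, CUR_DMSO replicate 5 and ETP_DMSO replicate 1, gave r = 0.962, 0.889, -0.783 and -0.751. Genes shared with the G1/S list were removed from the other list, each two-sided permutation kept samples within their group, and p measures the spread between these samples, which may be technical. The lists and this comparison were chosen with the data known. A small p does not set these lists apart from other genes that follow the main axis of all genes, described below. Cholesterol genes had r = 0.557 (rho = 0.589, adjusted permutation p = 0.0062 and 0.0038), with -0.0593 within CUR_DMSO and 0.626 without the 2 farthest samples. Inflammatory genes had r = -0.473 (rho = -0.541, adjusted permutation p = 0.022 and 0.0063), yet 0.491 within MMS_CTL, where replicate 3 is the low sample. Amino acid genes had r = -0.462 (rho = -0.423, adjusted permutation p = 0.034 and 0.048) and 0.102 within MMS_CTL. Histone genes had r = 0.461 with rho = 0.319 (adjusted permutation p = 0.046 and 0.15), and r = 0.11 without MMS_CTL replicate 3 and CUR_DMSO replicate 5. For the other 7 lists no relation passed (adjusted permutation p of r from 0.23 to 0.99). Without MMS_CTL replicate 3 and CUR_DMSO replicate 5, 4 of them passed: interferon (r = -0.697), DNA repair (-0.616), xenobiotic (-0.538) and metallothionein genes (0.455). Their adjusted permutation p was 0.00032 to 0.049. With those replicates kept and list means taken less the mean over all genes, interferon (r = -0.624), DNA repair (-0.743) and xenobiotic genes (-0.541) passed too. Their adjusted permutation p was 0.0018, 0.00013 and 0.0067.

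**Figure D5:**
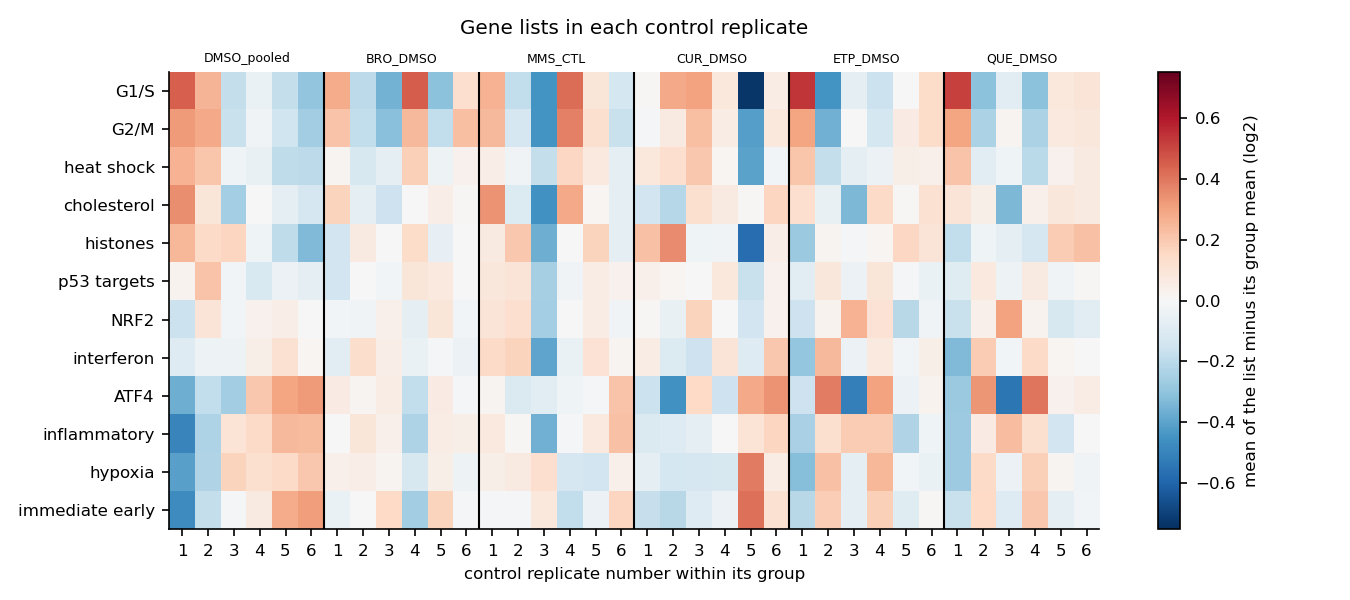
Mean of each gene list minus its group mean (log2) in each of 36 control replicates, by group, in red above and blue below the group mean. The G1/S, G2/M and heat shock rows change colour together and the immediate early and hypoxia rows take the opposite colour, with CUR_DMSO replicate 5 the lowest for G1/S at -0.73; ETP_DMSO and QUE_DMSO show like patterns by number.

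A principal component of the deviations of all 10471 genes held 39.2% of the variance, beside 8.31% for the next. It was computed from the same replicates and values as the list means, so it is no separate support for the list relations. Of the 159 variable genes 82 lay on the side of FAM111B and 77 on that of EGR1. The highest scores were those of replicate 1 in DMSO_pooled (26.2), QUE_DMSO (25.1) and ETP_DMSO (24.4), and the lowest was that of CUR_DMSO replicate 5 (-29.8). Cell density, time in culture and RNA quality were not given in the sources used here, and their part in this axis was not tested. The mean deviation over all genes ran from -0.29 in MMS_CTL replicate 3 to 0.09, with an SD of 0.07.

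Promoters of genes from both sides of this axis are shown with the motifs that a search of both strands found. The motifs were CCAAT, bound by NF-Y, the E2F forms TTTCCCGC and TTTGGCGC, the CArG box of serum response elements in 1 of its forms and the box TATAAA, and capitals mark the matches. CDC6 is at chr17:40287629-40287928, plus strand, EGR1 at chr5:138465229-138465528, plus strand and IL1B at chr2:112836730-112837029, minus strand.
CDC6: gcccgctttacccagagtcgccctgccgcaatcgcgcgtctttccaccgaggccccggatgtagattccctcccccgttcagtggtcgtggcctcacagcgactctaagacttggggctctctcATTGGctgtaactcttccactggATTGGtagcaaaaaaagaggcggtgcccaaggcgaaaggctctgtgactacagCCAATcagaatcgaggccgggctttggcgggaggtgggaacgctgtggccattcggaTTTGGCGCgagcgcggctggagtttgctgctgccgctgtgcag
EGR1: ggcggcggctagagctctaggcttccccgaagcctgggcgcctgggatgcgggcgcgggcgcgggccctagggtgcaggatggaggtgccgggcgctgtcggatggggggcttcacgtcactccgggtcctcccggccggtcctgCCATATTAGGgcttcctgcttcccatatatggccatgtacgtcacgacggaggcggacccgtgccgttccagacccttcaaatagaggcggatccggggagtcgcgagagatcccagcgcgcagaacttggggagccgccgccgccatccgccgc
IL1B: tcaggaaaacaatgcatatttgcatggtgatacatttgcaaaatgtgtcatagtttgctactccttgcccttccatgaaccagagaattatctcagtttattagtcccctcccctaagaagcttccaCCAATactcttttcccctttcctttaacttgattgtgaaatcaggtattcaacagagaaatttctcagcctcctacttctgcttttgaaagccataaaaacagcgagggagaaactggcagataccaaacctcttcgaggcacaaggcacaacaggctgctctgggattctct
CDC6 holds 3 CCAAT matches and a TTTGGCGC match at position 8 from the start of the gene, EGR1 a CArG box match at position -105, and IL1B a CCAAT match at position -123. An E2F form lay in 7.94% of 63 stretches on the FAM111B side, 1.59% of 63 on the EGR1 side and 3.86% of 8727 genes with a mean of 4 or more, which is 5, 1 and 337 genes. CCAAT lay in 36.5% and 52.4% of the 2 sides and in 37.3% of those genes. TATAAA lay in 14.3% of the variable genes and 5.34% of the genes with a mean of 4 or more. The CArG form lay in 6 of all 15399 stretches. These counts are small and carry no test.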

How the data were processed

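The deposited values are log2 summaries of 54715 probe sets on Affymetrix HT HG-U133+ PM arrays, which the authors made with Partek and GCRMA, a method that corrects background by probe sequence, per the submitters' processing notes, with no version given. Quantiles of the arrays were alike within 6 array sets and differed between them, so nothing was compared between sets except ranks.

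Leaving aside array controls, 54613 probe sets remained, of which 40914 had 1 gene in the array's annotation, 864 had several and 12835 had none, and 56 symbols found no match in RefSeq GRCh38.p14 and were left as given or unnamed. A gene was read from its brightest probe set, averaged over the whole series, which gave 19774 genes. Group means were ranked into percentiles within each of 6 groups. The SD between replicates was pooled within groups over genes with a mean of 4 or more and checked with limma 3.58.1 under R 4.3.3, with tests on simulated data. Python 3.11.15, pandas 2.3.3, numpy 2.4.6, scipy 1.17.1 and matplotlib 3.10.9 were used, with data.table (version 1.17.8). List means were related by 100000 permutations within groups, two-sided, with Benjamini-Hochberg adjustment over 15 lists. This test was added after the data were seen. The replicate number pairs ETP_DMSO with QUE_DMSO throughout (every r over 0.1) and no other 2 control groups. Some arrays of the same number deviated together elsewhere. Between DMSO_pooled and ETP_DMSO r ran from -0.652 to 0.759, and between DMSO_pooled and QUE_DMSO from -0.498 to 0.726.

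Named genes were a panel of 46 genes, up to 4 high members and the exceptions of each list described, the 10 genes of highest mean percentile, the 20 of largest SD, the 10 of widest percentile range and, for the most variable lists, 3 members of largest SD; where space was short some were left out. Of the genes in 38 lists, 847 were measured and 87 not analysed here. The members and lists were chosen with earlier results of these data known. The alternatives were other probe set rules, thresholds and filters, quantile normalization or an equal median for each array, a replicate block, and leaving out replicates or groups.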

Additional observations from a re-analysis of the deposited data

Results flagged for a closer look

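In groups of 6, a sample was looked at again where its gap to the nearest other sample was over Dixon's critical share of the group's range. This was done for the 20 most variable genes, 8 lists and the spread of each sample over genes. Of 174 groups of values in all, 20 met it. Chance gives about 1 in 20 for independent groups that were not picked for spread. The 20 genes were picked for their spread in these same replicates, so the count cannot be set against that rate. No explanation was weighed.

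CUR_DMSO replicate 5 met it most often. Its SD of deviation over genes was 0.359, beside 0.181 to 0.236 in the other replicates of its group. Its G1/S list was at -0.73 and its heat shock list at -0.40 from the group mean, and its hypoxia list was at 0.39. DLEU2 was at 3.82, CCNE2 at 4.60 and BRI3BP at 4.62 there, each below all other replicates of the group. In the same group PTGES was lowest in replicate 3, at 8.09 beside 8.79 to 9.14.

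The array labelled MMS_CTL replicate 3 had CC2D1A at 7.86, where the others were between 4.71 and 5.02. In the same group replicate 1 had the cytokine gene IL24 at 4.94, where the others were between 3.26 and 3.69. BRO_DMSO replicate 4 had IL1B at 9.94, its amino acid list at -0.18 and its inflammatory list at -0.23, and BRO_DMSO replicate 1 had GMFG at 4.48.

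The number 1 arrays of 3 groups were low in PTGES: 4.94 in DMSO_pooled, beside 7.74 to 8.79 in the others, 8.93 in ETP_DMSO and 8.85 in QUE_DMSO. QUE_DMSO replicate 1 was also low in GALNT15, at 5.75, and FBXO32, at 6.30. QUE_DMSO replicate 3 had its cholesterol list at -0.34, beside 0.04 to 0.10 in the others. ETP_DMSO and QUE_DMSO are not shown to be independent, so the PTGES values of these groups may be 1 observation.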

How the results depend on the processing

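Of 142 values under other settings, which cover counts, rank agreement, list spread and the 8 list relations that passed, 123 kept their call or stayed within 1.5 times and 19 did not, and none turned in direction. Among the 7 relations that did not pass, which are not in the 142, the xenobiotic one turned in 2 settings. On every probe set singly there were 3537 high, 12985 low, 17039 at or above 4 and 578 variable probe sets. High genes were 3525 at a percentile of 80 and 850 at 95, and low genes 4151 at 30. Variable genes were 78 with a mean of 6 or more, 83 with probe sets of a gene averaged, 87 by the median absolute deviation, and 507 and 58 at SDs of 0.4 and 0.6. With the replicate number as a replicate block there were 129 variable genes, of which 121 were among the 159, and the SDs of the 20 most variable genes stayed within 1.5 times; no other result was fitted with the block. Without 1 replicate in turn, high genes ran from 1693 to 1715, low genes from 6775 to 6841, genes at or above 4 from 9721 to 9758 and variable genes from 124 (without CUR_DMSO replicate 5) to 175, with 119 to 159 of the 159 kept.

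Of the relations with the G1/S list, the histone one was at r = 0.351 with list means less the mean over all genes, 0.40 with QUE_DMSO kept and 0.11 without MMS_CTL replicate 3 and CUR_DMSO replicate 5. The amino acid (ATF4) one was at -0.415 and the inflammatory one at -0.391 with the mean of probe sets, and at -0.385 and -0.304 without the number 1 arrays of DMSO_pooled, ETP_DMSO and QUE_DMSO. None of these 7 passed. The xenobiotic relation went from 0.015 to -0.541 less the mean over all genes and -0.538 without MMS_CTL replicate 3 and CUR_DMSO replicate 5. Less the mean over all genes, the interferon and DNA repair relations were at -0.624 and -0.743 and passed. Leaving out 1 replicate gave r from 0.953 to 0.965 for G2/M, 0.894 to 0.930 for heat shock, -0.850 to -0.776 for hypoxia, -0.845 to -0.784 for immediate early, 0.493 to 0.640 for cholesterol, -0.680 to -0.389 for inflammatory, -0.542 to -0.404 for amino acid and 0.251 to 0.630 for histone genes. The histone call was lost in 17, the amino acid call in 9 and the inflammatory call in 2 of 30 such fits. The cause was not tested. Low signal over background limits the ranks of low genes.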
